A study of Mus musculus with 21 samples.

Results

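Expression of 7 genes of the CD44, selectin ligand and leukocyte adhesion group (Cd44, Cd24a, Ezr, Selplg, Icam1, Vcam1 and Cd164) was followed in sorted brain immune cells after traumatic brain injury (TBI). The genes were taken by symbol from a table of 45706 gene rows, and all 7 were found and had enough counts to be tested. They were chosen with earlier results of these data known. The 21 RNA-seq libraries came from male mice aged 17 to 24 weeks on the C57BL/6 background, with 3 libraries in each of 7 groups and tissue of 2 brains pooled for each library. Injured mice had controlled cortical impact (CCI), an open-head contusion, and sham controls had anesthesia, scalp incision and craniotomy without the impact. Microglia (CD45low CD11b+) were sorted from sham wildtype mice, from wildtype (WT) mice 1 d and 7 d after CCI, and from Fgg γ390–396A mice 1 d and 7 d after CCI. Infiltrating myeloid cells (CD45hi CD11b+, labelled as macrophages) were sorted from WT and Fgg γ390–396A mice 1 d after CCI. The Fgg γ390–396A allele encodes a fibrinogen that lacks the binding motif for the CD11b/CD18 integrin and still clots. The mutation is carried in every cell of the animal, and all sham libraries are WT, so that in a comparison of an injured Fgg γ390–396A group with sham controls injury and genotype cannot be told apart.

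Leukocytes leave the blood in steps. Selectins on the vessel wall catch glycoproteins such as PSGL-1, CD44 and CD24 on the leukocyte, and integrins on the leukocyte then bind ICAM-1 and VCAM-1 for firm adhesion. CD44 is also the main receptor for hyaluronan, a matrix sugar polymer, and ezrin ties the tails of CD44 and PSGL-1 to the actin cytoskeleton. Microglia live in the brain tissue and reach a lesion without passing a vessel wall, whereas the myeloid cells that enter after injury have just gone through these steps.

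Values are CPM, counts scaled to a common library total with TMM factors. The deposited counts are scaled by transcript length, so levels can be compared between genes as well as between libraries. A gene was called when its absolute log2 fold change was above 1 with an adjusted p under 0.05, or under 0.1 between genotypes, by the quasi-likelihood test of edgeR, adjusted by the Benjamini-Hochberg method over 23815 genes. Library totals ran from 18896957 to 51875767 counts, of which ribosomal RNA took 43.0% to 58.5%, and the limit of 3 counts stood at 0.0448 to 0.158 CPM. Each member had at least 13 counts in every library. The 8 microglial markers summed to between 10037 and 11159 CPM in sham microglia, to 2745 to 4233 CPM in WT and 4807 to 6225 CPM in Fgg γ390–396A microglia at 1 d, and to 345 to 963 CPM in the myeloid cells. The 8 neutrophil markers summed to between 3413 and 12874 CPM in the WT myeloid cells and to between 2460 and 5611 CPM in the Fgg γ390–396A myeloid cells. Neutrophil as well as macrophage markers were thus present in the CD45hi gate. Sham microglia replicate 1 stood apart, with a border macrophage sum of 3.95 CPM and a neutrophil sum of 1.88 CPM, against 94.1 and 88.2 CPM in replicate 2 and 186 and 623 CPM in replicate 3. Its 10 dissociation response genes summed to 856 CPM, against 108 and 147 CPM in the other sham libraries. All comparisons with sham controls share these 3 libraries, whichever the day after CCI. The time between sham surgery and sorting is not given for them. The comparisons with sham controls are therefore not known to be matched for time after surgery. In sorted bulk samples, fewer cells of a type and less RNA per cell cannot be told apart.

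The start regions of 3 members are shown because Cd44 and Ezr rose together in WT microglia after injury while Icam1, a textbook NF-kappa-B target, was not called. RefSeq (GRCm38.p6) held entries for 4 of the 7 members, Cd44, Ezr, Icam1 and Cd164. Each sequence runs 5′ to 3′ on the gene's strand over 250 bases before the annotated start and 20 bases after it, and capitals mark motif matches found by a search of both strands.
Cd44, chr2:102901646-102901915, minus strand: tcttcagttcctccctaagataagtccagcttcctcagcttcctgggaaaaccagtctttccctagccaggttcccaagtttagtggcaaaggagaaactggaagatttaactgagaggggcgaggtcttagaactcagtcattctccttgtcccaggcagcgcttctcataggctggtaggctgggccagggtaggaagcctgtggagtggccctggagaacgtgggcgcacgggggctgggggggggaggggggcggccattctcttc
Ezr, chr17:6782761-6783030, minus strand: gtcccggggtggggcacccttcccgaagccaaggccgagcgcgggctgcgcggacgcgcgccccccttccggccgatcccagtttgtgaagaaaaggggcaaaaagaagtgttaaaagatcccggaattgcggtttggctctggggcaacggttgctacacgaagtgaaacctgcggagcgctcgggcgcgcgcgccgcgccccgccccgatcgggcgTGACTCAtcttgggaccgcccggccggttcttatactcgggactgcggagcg
Icam1, chr9:21015690-21015959, plus strand: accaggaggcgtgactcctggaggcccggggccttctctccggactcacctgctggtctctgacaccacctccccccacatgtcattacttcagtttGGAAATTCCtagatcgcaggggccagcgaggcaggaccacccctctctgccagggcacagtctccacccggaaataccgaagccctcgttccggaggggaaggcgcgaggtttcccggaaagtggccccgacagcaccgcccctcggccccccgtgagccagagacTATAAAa
The capitals in Ezr are TGANTCA, the AP-1 motif, 32 to 26 bases before the start, which reads the same on both strands. The first capitals in Icam1 are GGANNTTCC, a kappa-B-like motif, 153 to 145 bases before the RefSeq start, and the second are TATAAA at bases 14 to 19 after it. The GENCODE M21 start of Icam1, chr9:21015985, differs from the RefSeq start. It lies beyond the end of the printed sequence, so that both matches, TATAAA included, are before the GENCODE start. Neither Cd44 nor Cd164 held a match to these motifs, to GAAANNGAA or to the longer kappa-B consensus. Of 32851 RefSeq windows of 300 bases, 7.81% held TGANTCA, 4.26% GGANNTTCC, 13.6% TATAAA, 8.56% GAAANNGAA and 8.46% the kappa-B consensus. A match is a run of letters and not a shown binding site.

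The order of the 7 genes differed between resident and infiltrating cells. In sham microglia, Selplg led at 1043 ± 134 CPM (SD, n = 3), followed by Cd164 at 426 ± 17.1 CPM and Icam1 at 21.1 ± 3.87 CPM. Vcam1 (4.79 ± 3.76 CPM), Cd44 (4.34 ± 2.81 CPM), Cd24a (1.32 ± 0.835 CPM) and Ezr (1.22 ± 0.822 CPM) came last, and each of these overlapped its neighbour in the order. In WT myeloid cells Cd44 led at 911 ± 258 CPM, followed by Cd24a at 305 ± 56.2 CPM. Selplg (146 ± 5.14 CPM) and Cd164 (142 ± 16.2 CPM) overlapped, and Ezr (67.9 ± 3.70 CPM), Icam1 (15.5 ± 4.04 CPM) and Vcam1 (1.17 ± 0.258 CPM) followed without overlap.

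**Figure D1:**
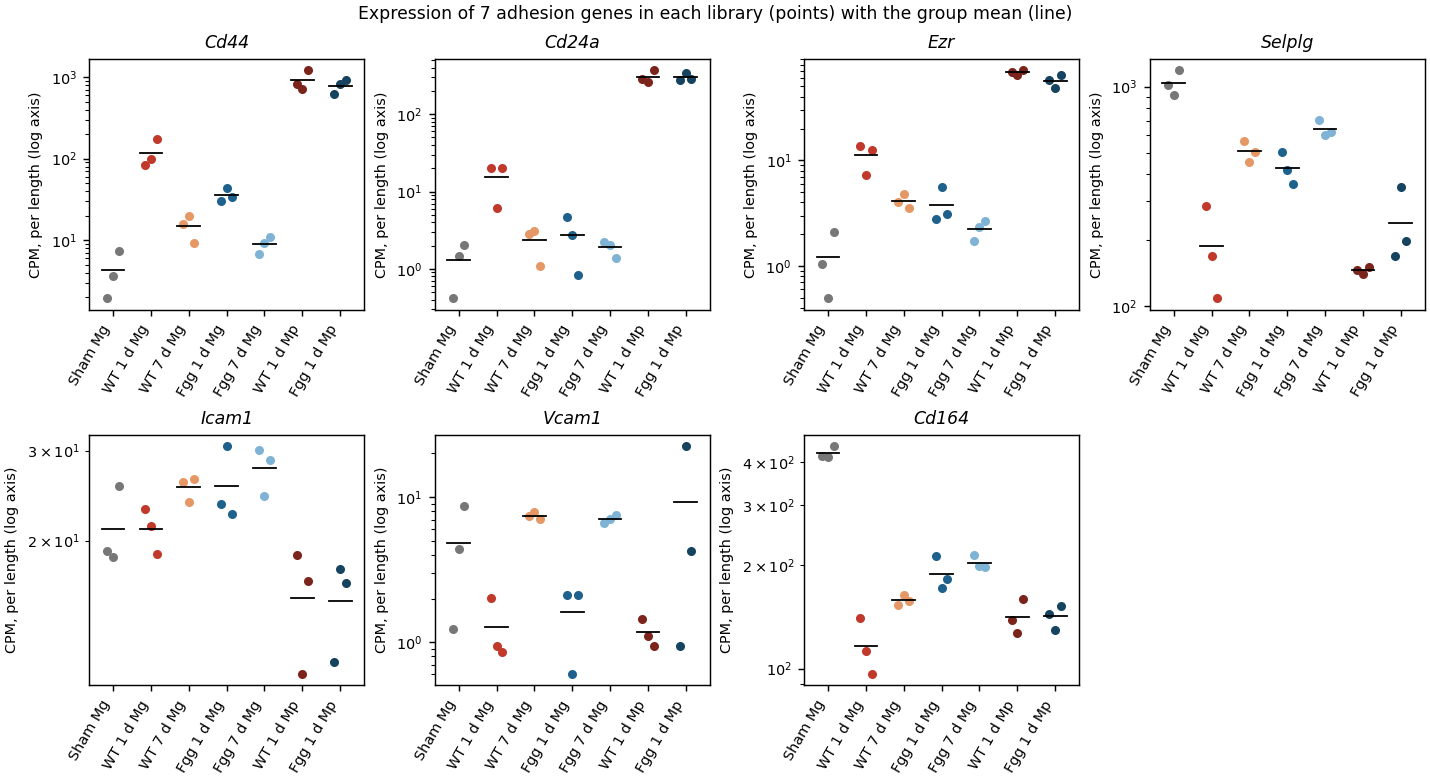
Level of each gene in every library, in CPM per length on a log axis that differs between panels; points are the 3 libraries of a group, lines the group means, Mg microglia and Mp infiltrating myeloid cells. Cd44, Cd24a and Ezr are highest in the myeloid cells and next highest in WT microglia at 1 d, whereas Selplg and Cd164 are highest in sham microglia.

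The first question was how the injury moved these genes in WT microglia. At 1 d, 5 of the 7 members were called against sham controls, 3 higher and 2 lower, where 12.3% of all genes tested were called. Cd44, Cd24a and Ezr rose, and Selplg and Cd164 fell.

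Cd44, the hyaluronan receptor (chromosome 2, 102811141 to 102901665, minus strand), was at 1.94, 3.64 and 7.44 CPM in the sham libraries and at 84.9, 99.3 and 172 CPM in WT microglia at 1 d. All injured libraries lay above all sham libraries, by 27.2-fold (log2 4.76 ± 0.44 SE; edgeR quasi-likelihood test, adjusted p = 5.5e-07). The monocyte markers summed to 51.3, 4.05 and 7.81 CPM in these WT libraries and to 5.64, 5.39 and 36.7 CPM in the sham libraries. The border macrophage markers summed to 162, 111 and 209 CPM in the same WT libraries, with the highest sum in the library highest in Cd44. The part of these cells in the Cd44 rise was not tested. At 1 d in WT microglia, 0 of the 8 neutrophil, 4 monocyte and 4 border macrophage markers were called against sham.

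Cd24a, a small mucin-like ligand of P-selectin (chromosome 10, 43578284 to 43584265, plus strand), was at 0.414, 1.48 and 2.06 CPM in sham microglia and at 20.0, 6.04 and 20.1 CPM in WT microglia at 1 d. The groups did not overlap, but replicate 2 of the injured group was well below the other two libraries. The difference was 11.5-fold (log2 3.53 ± 0.57 SE; edgeR, adjusted p = 0.000183). The neutrophil markers, from a cell type rich in CD24, summed to 770, 123 and 507 CPM in the same 3 WT libraries, with the lowest sum in the library lowest in Cd24a. Sham replicate 3, with a neutrophil sum of 623 CPM, had 2.06 CPM of Cd24a. The part of neutrophil RNA in the Cd24a rise was not tested. A stretch of 259 bases of the Cd24a transcript is 92.3% identical to Gm15352, which had 0 counts in all libraries. A stretch of 218 bases is 96.8% identical to Gm6212, which had no row among the deposited counts and could not be checked.

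Ezr, which encodes ezrin (chromosome 17, 6738041 to 6782784, minus strand), was at 1.05, 0.494 and 2.11 CPM in sham microglia and at 13.7, 7.24 and 12.6 CPM in WT microglia at 1 d. Every injured library exceeded every sham library, by 8.96-fold (log2 3.16 ± 0.38 SE; edgeR, adjusted p = 7.84e-06). It overlaps exons of Sytl3 on the other strand, which had 41 counts over all libraries against 13159 for Ezr.

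Selplg, which encodes PSGL-1, the main P-selectin ligand (chromosome 5, 113818536 to 113832644, minus strand), was at 1023, 919.6 and 1185 CPM in sham microglia and at 287, 170.1 and 108 CPM in WT microglia at 1 d. It was 5.53-fold lower with no overlap (log2 -2.47 ± 0.29 SE; edgeR, adjusted p = 7.43e-06). The microglial markers summed to 4233, 3858 and 2745 CPM in the same WT libraries, in the same order as Selplg, and 5 of these 8 markers were called lower against sham. Whether the fall of Selplg went beyond that of the microglial markers as a group was not tested.

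Cd164, which encodes the sialomucin endolyn, a partner of CXCR4 in cell migration (chromosome 10, 41519414 to 41531048, plus strand), was at 418, 414 and 446 CPM in sham microglia and at 141, 112 and 96.5 CPM in WT microglia at 1 d. The fall was 3.65-fold with no overlap between groups (log2 -1.87 ± 0.15 SE; edgeR, adjusted p = 1.84e-07). The WT libraries stood in the same order as their microglial marker sums given for Selplg. Whether the fall of Cd164 went beyond that of these markers was not tested.

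The 2 ligands of leukocyte integrins were not called. Icam1 (chromosome 9, 21015985 to 21028817, plus strand) was at 19.1, 18.6 and 25.5 CPM in sham microglia and at 23.1, 21.3 and 18.9 CPM in WT microglia at 1 d. The groups overlapped and their means were both 21.1 CPM, with a 95% interval of the log2 difference from -0.45 to 0.45. An antisense gene, Gm47079, shares exon sequence with Icam1 and was not analysed here. Vcam1 (chromosome 3, 116109949 to 116129688, minus strand) was at 1.24, 4.40 and 8.72 CPM in sham microglia and at 2.02, 0.941 and 0.859 CPM in WT microglia at 1 d. Sham replicate 1 lay within the injured range, and the log2 difference of -1.91 ± 0.79 SE was not called (edgeR, adjusted p = 0.116). DESeq2, which called 16.4% of all genes here, called it (log2 -1.99, adjusted p = 0.0367), as did edgeR on the microglia libraries only (log2 -1.90, adjusted p = 0.0287). The border macrophage sums in the sham libraries, 3.95, 94.1 and 186 CPM, had the same order as sham Vcam1. In WT microglia at 1 d these sums, 162, 111 and 209 CPM, were not in the order of Vcam1. They were 1166 to 2083 CPM in WT myeloid cells, where Vcam1 was at 1.17 CPM. Endothelial markers summed to 2.42, 4.56 and 3.14 CPM in sham microglia, not in the order of Vcam1. In WT microglia at 1 d they summed to 2.79, 1.01 and 0.664 CPM, in the order of Vcam1. The part of either cell type in the Vcam1 levels was not tested.

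**Figure D2:**
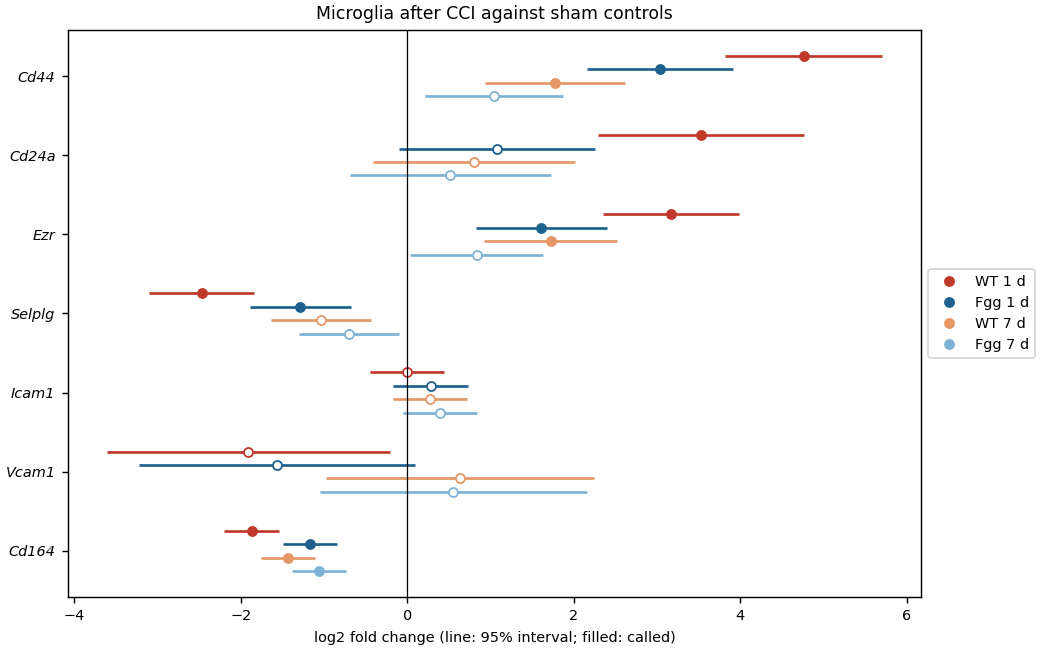
Log2 fold change of each gene in microglia after CCI against sham controls, with points for the estimates and lines for the 95% intervals; filled points were called. The WT 1 d estimates of Cd44, Cd24a and Ezr lie farthest to the right, at 4.76, 3.53 and 3.16, and all Icam1 intervals include 0.

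At 7 d, Cd44 and Ezr were still above the sham level in WT microglia, and Cd164 was still below it. Against sham controls 3 of the 7 members were called, 2 higher and 1 lower, where 2.02% of all genes were called. Cd44 was at 15.9, 19.7 and 9.31 CPM, above every sham library (3.42-fold, log2 1.77 ± 0.39 SE; edgeR, adjusted p = 0.0144). Ezr was at 4.01, 4.80 and 3.56 CPM, again above every sham library (log2 1.72 ± 0.37 SE; edgeR, adjusted p = 0.012). Both calls depended on which libraries were kept. Without sham replicate 1 the adjusted p rose to 0.08 for Cd44 and 0.0767 for Ezr, without sham replicate 2 to 0.0838 and 0.0546, and without WT 7 d replicate 2 to 0.0835 and 0.0547, while without WT 7 d replicate 1 that of Cd44 rose to 0.0505. Cd164 stayed low at 153, 164 and 158 CPM, below every sham library (2.69-fold, log2 -1.43 ± 0.15 SE; edgeR, adjusted p = 2.25e-05). Selplg was at 565, 452 and 507 CPM, below every sham library, but its log2 difference of -1.04 ± 0.28 SE missed the threshold (edgeR, adjusted p = 0.0555) and was called by DESeq2 (log2 -1.05, adjusted p = 0.00522), which called 3.46% of all genes here. Cd24a was at 2.87, 3.05 and 1.08 CPM and overlapped sham. Icam1 ranged from 18.6 to 30.6 CPM over the 15 microglia libraries of all groups and was called in no comparison.

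Between 1 d and 7 d in WT microglia, 5 members were called, where 7.06% of all genes were. Cd44 fell by 2.99 on the log2 scale (± 0.40 SE; edgeR, adjusted p = 7.92e-05), Cd24a fell by 2.73 (± 0.56 SE; edgeR, adjusted p = 0.00266) and Ezr fell by 1.44 (± 0.35 SE; edgeR, adjusted p = 0.0103). Selplg rose by 1.43 on the log2 scale (± 0.28 SE; edgeR, adjusted p = 0.00218). Vcam1 rose from 2.02, 0.941 and 0.859 CPM to 7.41, 7.93 and 7.03 CPM, with no overlap and very even libraries at 7 d. Its log2 difference of 2.55 ± 0.81 SE sat at the threshold (edgeR, adjusted p = 0.05) and was lost on leaving out WT 1 d replicate 2 (adjusted p = 0.193), WT 1 d replicate 3 (0.203) or any one of the WT 7 d libraries (0.0896 to 0.103). Endothelial markers summed to 2.79, 1.01 and 0.664 CPM at 1 d and to 3.87, 9.63 and 3.25 CPM at 7 d. Border macrophage sums, 162, 111 and 209 CPM at 1 d and 108, 173 and 177 CPM at 7 d, overlapped. The part of these cells in the Vcam1 rise was not tested. The Ezr call was lost without WT 7 d replicate 3 (adjusted p = 0.0549). Cd164, at 141, 112 and 96.5 CPM at 1 d, was above each of these at 7 d, by 0.44 ± 0.15 on the log2 scale, and was not called (edgeR, adjusted p = 0.0685).

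In Fgg γ390–396A microglia at 1 d, 4 members were called against sham, 2 higher and 2 lower, where 6.64% of all genes were called. Cd44 was at 30.0, 43.4 and 34.2 CPM, above every sham library (8.20-fold, log2 3.04 ± 0.41 SE; edgeR, adjusted p = 5.82e-05). Ezr was at 2.79, 5.54 and 3.13 CPM, also without overlap (log2 1.61 ± 0.37 SE; edgeR, adjusted p = 0.00639), and lost its call without Fgg γ390–396A 1 d replicate 2 (adjusted p = 0.0594) and when only the compared groups were fitted (adjusted p = 0.11). Selplg was at 506, 416 and 359 CPM, below every sham library (log2 -1.29 ± 0.28 SE; edgeR, adjusted p = 0.00465). Cd164 was at 213, 172 and 182 CPM, below every sham library as well (log2 -1.17 ± 0.15 SE; edgeR, adjusted p = 3.93e-05). Cd24a, at 4.62, 2.74 and 0.844 CPM, overlapped sham and was not called (log2 1.08 ± 0.55 SE; edgeR, adjusted p = 0.28).

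At 7 d, Cd164 was the single member called in Fgg γ390–396A microglia against sham, where 0.663% of all genes were called. It was at 215, 199 and 197 CPM, below every sham library (log2 -1.07 ± 0.15 SE; edgeR, adjusted p = 0.00109). Cd44 was at 6.89, 9.29 and 10.9 CPM and overlapped sham at its lowest library (log2 1.04 ± 0.39 SE; edgeR, adjusted p = 0.412). Selplg was at 706, 604 and 619.6 CPM, below every sham library, without a call (log2 -0.70 ± 0.28 SE; edgeR, adjusted p = 0.503). Without sham replicate 3, which had the most Cd44 and neutrophil RNA of the sham libraries, Cd44 was called (log2 1.69, adjusted p = 0.0465). From 1 d to 7 d, Cd44 was also the single member called, where 3.54% of all genes were, and it fell by 1.99 on the log2 scale (± 0.39 SE; edgeR, adjusted p = 0.00355). Vcam1 was at 6.63, 7.03 and 7.49 CPM at 7 d, above all 3 libraries at 1 d (2.12, 0.604 and 2.13 CPM), and was not called (log2 2.12 ± 0.78 SE; edgeR, adjusted p = 0.147), although DESeq2 called it (adjusted p = 0.0344) among 5.08% of all genes.

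The next question was whether the fibrinogen mutation altered these genes. At 1 d in microglia, 0 of the 7 members were called by edgeR between Fgg γ390–396A and WT mice, where 0.0546% of all genes were called. An unadjusted p under 0.05 was reached by 5 members, Cd44, Cd24a, Ezr, Selplg and Cd164, and by 5.08% of all genes. Cd44 was at 30.0, 43.4 and 34.2 CPM in Fgg γ390–396A against 84.9, 99.3 and 172 CPM in WT microglia, 3.31-fold lower (log2 -1.73 ± 0.38 SE; edgeR, unadjusted p = 0.00023, adjusted p = 0.243). Cd24a, at 4.62, 2.74 and 0.844 CPM against 20.0, 6.04 and 20.1 CPM, was 5.46-fold lower (log2 -2.45 ± 0.54 SE; edgeR, adjusted p = 0.227). Ezr, at 2.79, 5.54 and 3.13 CPM against 13.7, 7.24 and 12.6 CPM, was 2.93-fold lower (log2 -1.55 ± 0.35 SE; edgeR, adjusted p = 0.264). Selplg, at 506, 416 and 359 CPM against 287, 170.1 and 108 CPM, was 2.27-fold higher (log2 1.18 ± 0.28 SE; edgeR, adjusted p = 0.385). Cd164, at 213, 172 and 182 CPM against 141, 112 and 96.5 CPM, was 1.62-fold higher (log2 0.70 ± 0.15 SE; edgeR, adjusted p = 0.208).

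None of these 5 passed the correction over all genes in edgeR, and the comparison shares its WT libraries with that of WT microglia at 1 d against sham. DESeq2, with its own size factors, called 0.437% of all genes and 4 members: Cd44 (adjusted p = 0.00167), Cd24a (0.00174), Ezr (0.0026) and Selplg (0.0179). In edgeR, 2 members were called on leaving out WT 1 d replicate 1 (Cd44, adjusted p = 0.0704, and Selplg, 0.0236) and 1 on leaving out WT 1 d replicate 2 (Cd24a, 0.0813). All genes called in this comparison ranged from 6 to 89 on leaving out 1 library, against 13 with all libraries. Neutrophil markers summed to 770, 123 and 507 CPM in WT and to 334, 51.1 and 22.1 CPM in Fgg γ390–396A microglia at 1 d, microglial markers were higher in each mutant library, dissociation response genes summed to 364, 305 and 406 CPM in WT and to 198, 76.6 and 278 CPM in the mutant, and ribosomal RNA took 50.6% to 58.5% of WT and 47.1% to 52.4% of mutant counts. The part of these in the differences was not tested. Icam1 (log2 0.28, 95% interval -0.17 to 0.73) and Vcam1 (log2 0.34, 95% interval -1.33 to 2.02) overlapped between the genotypes.

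At 7 d in microglia, 0 members were called by edgeR between the genotypes, where 0.0378% of all genes were, and 0 by DESeq2, where 0.336% were. Ezr (log2 -0.89 ± 0.36 SE) and Cd164 (log2 0.36 ± 0.15 SE) had an unadjusted p under 0.05 (0.023 and 0.024 in edgeR, adjusted p = 1 for both), as did 3.34% of all genes. Ezr was at 1.72, 2.33 and 2.65 CPM in Fgg γ390–396A and 4.01, 4.80 and 3.56 CPM in WT microglia, without overlap. Cd164 was at 215, 199 and 197 CPM in the mutant and 153, 164 and 158 CPM in WT. The change in the genotype difference between 1 d and 7 d was tested as an interaction, which called 0 members and 0% of all genes. At an unadjusted p under 0.05, which 2.74% of all genes passed, it held 2 members, Cd24a (log2 2.17 ± 0.76 SE) and Selplg (log2 -0.84 ± 0.39 SE), and DESeq2 called 0 members and 0.139% of all genes.

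**Figure D3:**
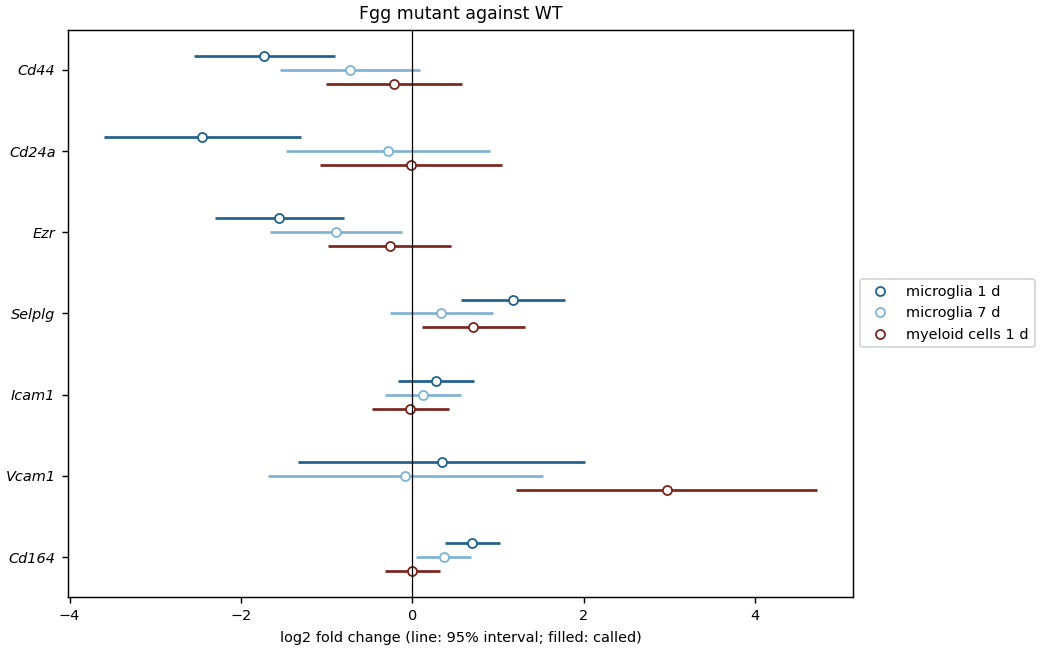
Log2 difference of each gene between Fgg γ390–396A and WT mice in microglia at 1 d and 7 d and in infiltrating myeloid cells at 1 d, with points for the estimates and lines for the 95% intervals; open points were not called. In microglia at 1 d the intervals of Cd44, Cd24a and Ezr lie below 0 and those of Selplg and Cd164 above 0, with no call after adjustment over all genes.

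In infiltrating myeloid cells at 1 d, 0 members were called by edgeR between the genotypes, where 0.453% of all genes were. Cd44 was at 619, 823 and 916 CPM in Fgg γ390–396A and at 821, 709 and 1202 CPM in WT cells, with a 95% interval of the log2 difference from -1.01 to 0.58. Cd24a was at 275, 344 and 286 CPM against 287, 260 and 368 CPM, with an interval from -1.08 to 1.05. Ezr was at 57.1, 48.1 and 64.5 CPM against 69.2, 63.8 and 70.8 CPM, and these groups overlapped too (95% interval -0.98 to 0.45). Cd164 had the narrowest interval, from -0.32 to 0.32.

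Selplg and Vcam1 were the members with an unadjusted p under 0.05 in the myeloid cells, as were 11.5% of all genes. Selplg was at 169, 348 and 198 CPM in Fgg γ390–396A and at 146, 141 and 151 CPM in WT cells, without overlap (log2 0.71 ± 0.28 SE; edgeR, adjusted p = 0.349). Vcam1 was at 0.949, 22.5 and 4.23 CPM against 1.45, 1.11 and 0.947 CPM. The mutant libraries spanned the WT range and 1 library was far above all others (log2 2.97 ± 0.82 SE; edgeR, adjusted p = 0.167), and DESeq2 called it (adjusted p = 0.00898) among 3.53% of all genes. The replicate 2 library with the high Vcam1 also had the highest Selplg and the highest microglial marker sum of the 6 myeloid libraries (963 CPM), a border macrophage sum of 1957 CPM and an endothelial sum of 4.76 CPM. The part of other cells in these 2 genes was not tested. Vcam1 lies 33.1 Mb from Fgg on chromosome 3.

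Infiltrating myeloid cells were next set against microglia from mice of the same genotype and day. No label says whether same-numbered libraries of both cell classes share brains, and the test treated them as independent. CD45 itself set the gates, and the microglial and neutrophil marker sums of the sorted populations are given above. Monocyte markers summed to 541 to 825 CPM in WT and 688 to 880 CPM in mutant myeloid cells. The 10 dissociation response genes summed to 1418 to 2325 CPM in WT and 766 to 1685 CPM in mutant myeloid cells. Their sums in 1 d microglia were 305 to 406 CPM and 76.6 to 278 CPM. Against microglia, 6 of them were called higher in WT and 7 in mutant cells, where 11.9% and 16.7% of all genes were called. The part of these in the differences was not tested. In WT mice 3 members were called, all higher in the myeloid cells, where 11.9% of all genes were called. Cd24a was 19.8-fold higher (log2 4.31 ± 0.57 SE; edgeR, adjusted p = 2.46e-05), Cd44 7.66-fold (log2 2.94 ± 0.40 SE; edgeR, adjusted p = 3.41e-05) and Ezr 6.06-fold (log2 2.60 ± 0.36 SE; edgeR, adjusted p = 3.6e-05), each without overlap. Selplg (log2 -0.37, 95% interval -0.97 to 0.23) and Vcam1 (log2 -0.11, 95% interval -1.82 to 1.59) overlapped between the cell classes.

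In Fgg γ390–396A mice 4 members were called higher in the myeloid cells, where 16.7% of all genes were called and the median log2 difference of all genes was -0.13. Cd24a was 107-fold higher (log2 6.74 ± 0.64 SE; edgeR, adjusted p = 5.43e-07), Cd44 21.9-fold (log2 4.45 ± 0.43 SE; edgeR, adjusted p = 6.08e-07) and Ezr 14.8-fold (log2 3.89 ± 0.38 SE; edgeR, adjusted p = 6.73e-07). The Vcam1 call (log2 2.51 ± 0.79 SE; edgeR, adjusted p = 0.0282) rested on the replicate 2 myeloid library, without which the log2 difference was 0.69 (adjusted p = 0.504). It was also lost without Fgg γ390–396A microglia replicate 1 (adjusted p = 0.0592), 2 (0.111) or 3 (0.0535), and when only the compared groups were fitted (0.139). Icam1 was at 11.6, 17.6 and 16.5 CPM in myeloid cells and at 23.6, 30.6 and 22.5 CPM in microglia, without overlap and under the bar on the fold change (log2 -0.75 ± 0.21 SE; edgeR, adjusted p = 0.0144). The genotype difference in myeloid cells minus that in microglia called 0 members in edgeR, where 0.0462% of all genes were called, and 5 members had an unadjusted p under 0.05, as did 8.37% of all genes. DESeq2 called 1 member (Cd24a, log2 2.51, adjusted p = 0.075) and 1.09% of all genes.

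**Figure D4:**
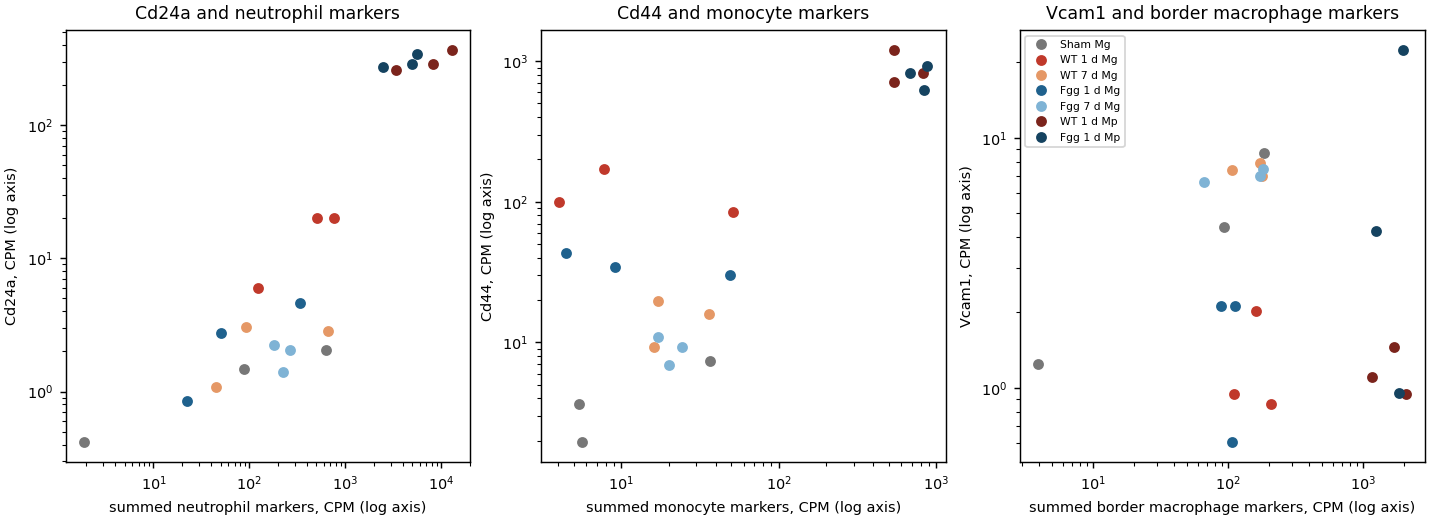
Level of Cd24a, Cd44 and Vcam1 in each of the 21 libraries against the summed level of neutrophil, monocyte and border macrophage markers, in CPM on log axes, colored by group. The myeloid libraries lie apart at the upper right for Cd24a and Cd44, and WT 1 d microglia (red) have the highest Cd44 of the microglia libraries.

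Across the 21 libraries Cd44, Cd24a and Ezr varied together (log2 CPM, Pearson r from 0.95 to 0.97), Selplg ran opposite to Cd44 (r = -0.88) and with Cd164 (r = 0.84). These correlations describe libraries that share groups, cell class and depth. Among 5121 protein-coding genes with a mean of at least 10 CPM, the genes most like Cd44 were Iqgap1 (r = 0.993), Vim (0.993) and Fam129b (0.990). Those most like Cd24a were Timp1 (0.981), Emilin2 (0.979) and Runx3 (0.977), and those most like Ezr were Anxa2 (0.979), Vim (0.978) and Plec (0.977). Vsir (0.951), Arhgap27 (0.950) and Pip4k2a (0.940) were closest to Selplg. Prkab1 (0.893), Klf3 (0.891) and Fam117b (0.890) were closest to Cd164. Within the 15 microglia libraries alone, Cd44 and Iqgap1 were at r = 0.982, Cd24a and Timp1 at 0.875, and Ezr and Anxa2 at 0.912. Selplg and Vsir were at 0.961 there, and Cd164 and Prkab1 at 0.947. Icam1 and Vcam1 had looser neighbours, led by Srek1 (0.903, and 0.592 within microglia) and Ncf1 (0.823).

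The wider set of adhesion genes was followed in a list of 76 genes, of which 73 were tested. The list was chosen with earlier results of these data known. Its shares of calls beside those of all genes are therefore a description and not an independent test. In WT microglia at 1 d, 13 were called against sham (17.8% against 12.3% of all genes), 8 higher and 5 lower. The median log2 change of the list was 0.21. On leaving out 1 library the count ran from 9 to 16. With a bar of 1.5 on the log2 fold change, 4 of the 73 were called, beside 1749 of 23815 genes. The higher share of the list was thus not kept at that bar. With the usual bar, 4 were called in WT microglia at 7 d, all higher (5.48% against 2.02%). There were 2 to 6 on leaving out 1 library, 2 without WT 7 d replicate 2 and 2 when only the compared groups were fitted. Fgg γ390–396A microglia had 4 at 1 d, all higher (5.48% against 6.64%), and 7 without replicate 1 of that group. At 7 d they had 2, both higher (2.74% against 0.663%).

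Of the 6 genes for sheddases and a ligand of CD44, 3 were called higher at 1 d in WT and in Fgg γ390–396A microglia. The shares called over all genes were 12.3% in WT and 6.64% in the mutant. Spp1, which encodes osteopontin, a secreted CD44 ligand, rose from 2.22 CPM in sham to 406 CPM in WT (log2 7.49 ± 0.65 SE) and 220.1 CPM in Fgg γ390–396A microglia at 1 d (log2 6.60 ± 0.63 SE). It was still called at 7 d in both genotypes, at 223 and 49.2 CPM. Adam8, a metalloprotease that cleaves PSGL-1 and CD44, rose from 0.730 CPM to 134 CPM in WT (log2 7.48 ± 0.62 SE) and 61.1 CPM in the mutant (log2 6.35 ± 0.59 SE) at 1 d. Mmp14, a membrane metalloprotease that cleaves CD44, rose in both genotypes at 1 d (log2 1.47 ± 0.23 SE in WT and 1.11 ± 0.23 SE in the mutant). Hyaluronan genes gave 2 calls of 13 in WT at 1 d, where 12.3% of all genes were called. They were Has3, a hyaluronan synthase (log2 1.02 ± 0.30 SE), and Cemip2, a cell surface hyaluronidase (log2 1.21 ± 0.39 SE).

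Of the 7 partners and kinases of ezrin, 1 was called higher and 1 lower in WT microglia at 1 d. The share called over all genes was 12.3%. Msn, which encodes moesin, a relative of ezrin, rose in WT microglia at 1 d just past the bar (log2 1.00 ± 0.19 SE), and Stk10, a kinase of ezrin and moesin, fell (log2 -1.37 ± 0.24 SE). Tln1, the integrin activator talin, rose (log2 1.22 ± 0.19 SE). None of the 9 integrin subunits that bind ICAM or VCAM was called at 1 d, whereas Itgax, the CD11c subunit, rose at 7 d in WT (2.00 to 16.4 CPM, log2 3.02 ± 0.38 SE) and in Fgg γ390–396A microglia (9.67 CPM, log2 2.27 ± 0.37 SE). Alcam, an immunoglobulin-type adhesion molecule, rose from 0.825 to 11.2 CPM in WT and 3.82 CPM in the mutant at 1 d, while F11r and Jam2, junctional adhesion molecules, fell in WT (log2 -1.32 for both). In the mutant at 1 d F11r was at 65.0 CPM against 106 CPM in sham. Jam2 was at 24.1 CPM against 41.9 CPM, and neither was called.

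Of 9 enzymes that build or sulfate selectin ligands, 2 were called lower in WT at 1 d, St3gal6, a sialyltransferase of selectin ligands (167 to 51.8 CPM, log2 -1.69 ± 0.33 SE), and Tpst2, which sulfates tyrosines of proteins such as PSGL-1 (log2 -1.16 ± 0.18 SE).

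In myeloid cells against microglia, 27 of the 73 were called in WT mice (37.0% against 11.9% of all genes), 19 higher and 8 lower, and 28 in Fgg γ390–396A mice (38.4% against 16.7%), 22 higher and 6 lower. Of the 9 integrin subunits 5 were higher in both genotypes, Itgal, Itgax, Itgb2, Itga4 and Itgb7, from log2 1.09 for Itgb2 to 4.66 for Itgb7 in WT, and Itga9 was lower. Cxcr4, the receptor that partners CD164, was at 210.3 CPM in WT myeloid cells and 5.40 CPM in WT microglia (log2 5.28 ± 0.85 SE). Vcan, a hyaluronan-binding proteoglycan, was at 109.8 CPM and 2.17 CPM in the same groups (log2 5.66 ± 1.01 SE). Cd34, St3gal6, F11r and Jam2 were lower in the myeloid cells of both genotypes. Between genotypes 0 of the 73 were called in microglia at either day, and 1 in myeloid cells, Jam3, at 0.253 ± 0.129 CPM in WT and 2.98 ± 3.77 CPM in the mutant (SD, n = 3; log2 3.50 ± 0.77 SE; edgeR, adjusted p = 0.072). This call was lost with the replicate block, when only the compared groups were fitted, and without Fgg γ390–396A myeloid replicate 2 or any one of the WT myeloid libraries.

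**Figure D5:**
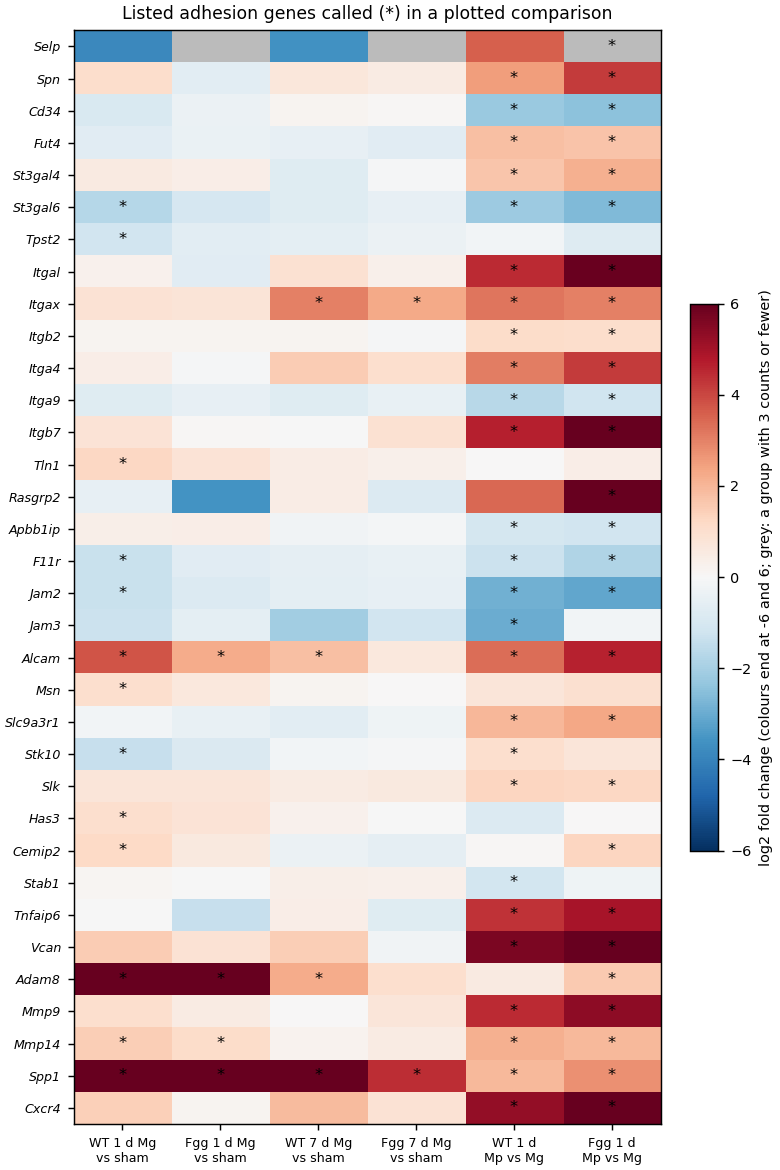
Log2 fold change of 34 listed adhesion genes called (asterisk) in at least 1 of 6 plotted comparisons, on a color scale that ends at -6 and 6, with grey where a group had 3 counts or fewer in every library. Spp1, Adam8 and Alcam rose in microglia of both genotypes at 1 d, and Itgal, Itgb7, Vcan, Mmp9 and Cxcr4 were higher in the myeloid cells of both genotypes.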

How the data were processed

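The authors ran the nf-core/rnaseq pipeline, with Trim Galore for trimming and salmon for quantification, against GRCm38. The deposited expected counts per gene are abundances per transcript length scaled to each library's mapped fragments, not normalized between libraries. Submitters' notes name R 4.2.0 and DESeq2 1.36.0. Ensembl IDs were matched to GENCODE M21 (45143 of 45706). Strandedness of the counting is not given in the sources used here, so antisense reads cannot be told apart.

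Counts were rounded. Genes with at least 5 counts over all libraries were fitted once with 7 group means (edgeR 4.0.16 in R 4.3.3, TMM, quasi-likelihood F test, two-sided). Standard errors came from the log2 fold change and F statistic, and 95% intervals used 14 residual degrees of freedom. The procedure was tested on simulated data. DESeq2 1.42.0, other filters, scalings, bars, fits on fewer groups, a replicate block and leaving out each library were alternatives. All 7 members were named, with adhesion genes from the list that were called, of which 1 is not reported here. Members, lists and markers were chosen with earlier results of these data known. Same-numbered libraries deviated together in every pair (correlations 0.372, 0.151 and 0.104) between the 1 d microglia groups, as a hint from the data, since no label ties the numbers to a shared day or litter. Replicate libraries differed beyond counting noise. The tests are on these pools, and the floor covers counting error only.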

Additional observations from a re-analysis of the deposited data

How the results depend on the processing

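Over all alternatives, 1339 of 1393 values of single members kept their side of the threshold, of which 30 changed sign with no call in either fit. A further 30 lost and 24 gained a call, and 0 called values changed sign. With a bar of 1.5 on the log2 fold change, 2 members were called in Fgg γ390–396A microglia at 1 d and 0 at 7 d against sham, and 3 in WT microglia from 1 d to 7 d. DESeq2 called 2 members in Fgg γ390–396A microglia from 1 d to 7 d, 4 between genotypes in microglia at 1 d, 1 between genotypes in myeloid cells and 1 in the myeloid minus microglia interaction. It also gained Vcam1 in WT microglia at 1 d and Selplg at 7 d against sham. DESeq2's size factors in edgeR shifted all log2 fold changes by a median of -0.12 in Fgg γ390–396A microglia at 1 d against sham and of 0.12 in Fgg γ390–396A myeloid cells against microglia, by less elsewhere, and changed no member call. Fits on the compared groups only or on microglia only called 2 in Fgg γ390–396A microglia from 1 d to 7 d. On the compared groups only, the 7 d WT calls of Cd44 and Ezr against sham (adjusted p = 0.108 and 0.139), the 1 d Fgg γ390–396A call of Ezr (0.11) and the Vcam1 call in Fgg γ390–396A myeloid cells against microglia (0.139) were lost, and Selplg at 7 d in WT against sham was gained (0.014). The cause was not tested. Leaving out 1 library gave 1 to 3 members in WT and 1 to 2 in Fgg γ390–396A microglia at 7 d against sham, 3 to 5 in WT from 1 d to 7 d, 0 to 2 between genotypes in microglia at 1 d and 0 to 1 in myeloid cells. In the same order, all genes called ran from 283 to 486, 74 to 179, 1186 to 2119, 6 to 89 and 65 to 641. With the replicate block, 0 members were called between genotypes in microglia at 1 d, and Vcam1 lost its calls in WT microglia from 1 d to 7 d (adjusted p = 0.0719) and in Fgg γ390–396A myeloid cells against microglia (0.0697), with no other member call changed. Groups of 3 libraries and sham values of a few CPM limit the precision for Cd24a, Ezr and Vcam1.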
